A study of Mus musculus with 18 samples.

Results

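Tagln2, which encodes the actin-binding protein transgelin 2, and 9 widely expressed genes of the actin cytoskeleton were followed through 3 ages in splenic neutrophils of lupus-prone mice. The genes were chosen by symbol: Tagln2, Actb, Actg1, Cfl1, Pfn1, Tmsb4x, Coro1a, Arpc2, Lcp1 and Msn. All 10 were found among the 17941 gene symbols of the count table, and all 10 were among the 10104 symbols that passed the filter on low counts. The list was drawn up with earlier results of these data known, and the values behind it are not stated. Tagln2 was taken as chosen for its higher level at 26 than at 14 weeks, so all its values are described without a test. Counts of called genes are given over the other 9, whose p-values may also be touched by the choice.

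All 18 mice were untreated NZBWF1/J females, the F1 hybrid of the NZB and NZW strains, in which an autoimmune disease resembling lupus develops as the animals age. The groups were 6 mice of 14 weeks, 6 of 20 weeks and 6 of 26 weeks, each mouse a biological replicate by its title and each with 1 RNA sequencing library. Neutrophils had been sorted from splenocytes as single, DAPI-negative events carrying Ly6b, CD11b and Ly6G with intermediate Ly6C. The ages stand for stages of disease in the series, and every mouse was of the same strain, so age and disease cannot be told apart.

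Actin passes back and forth between a pool of monomers and filaments that grow at one end and are taken apart at the other. Thymosin and profilin hold and deliver monomers, cofilin cuts and dissolves old filaments, the Arp2/3 complex starts side branches, and plastins bundle filaments that ezrin, radixin and moesin tie to the plasma membrane. Neutrophils depend on this turnover to crawl, to squeeze through vessel walls and to engulf particles, and defects of coronin 1A, L-plastin, moesin or the Arp2/3 machinery are known to disturb leukocyte movement. Transgelin 2 is a small calponin-related protein that stabilises filaments and is found in many blood cells.

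Libraries held 5546624 to 17256379 gene counts. The 10 neutrophil markers looked for, Ly6g, S100a8 and Csf3r among them, were all detected at each age, with summed levels of 91338 to 121408 CPM (counts scaled to the library size) at 14 weeks, 29993 to 72162 CPM at 20 weeks and 81336 to 176080 CPM at 26 weeks. Replicate 3 of 20 weeks stood apart by having counts in the fewest genes, 8119, against 10357 to 13164 in the libraries of the other ages. The 26-week libraries differed widely in the ribosomal RNA transcript Rn18s-rs5, at 134 to 3162 CPM, against 4.32 to 41.1 CPM at 20 weeks and 23.6 to 56.2 CPM at 14 weeks. Levels below are CPM on library sizes scaled by TMM factors, and a change is a log2 fold change ± SE from edgeR's quasi-likelihood fit with its p adjusted over all genes tested (called below 0.05). Since these are bulk libraries, fewer cells of a type and less RNA per cell cannot be told apart.

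Together the 10 genes made up 3.93 ± 0.355% of a 14-week library, 3.94 ± 0.378% of a 20-week library and 3.95 ± 0.378% of a 26-week library (SD, n = 6 each). Beneath that near-equal total the individual genes moved in different directions. Tagln2 was several times higher at 20 and at 26 weeks than at 14 weeks. Tmsb4x, Pfn1 and Cfl1, which handle monomers and filament turnover, were highest at 26 weeks. Without a trend with transcript length Tmsb4x stood at -0.04 and -0.20 and Pfn1 at -0.19 and -0.28 in 26 against 14 and 26 against 20 weeks. The median of all genes then moved to -0.09 and -0.33. Lcp1 and Msn, which bundle filaments and tie them to the membrane, were lowest at 26 weeks. Actb, Actg1, Coro1a and Arpc2 were not called between any pair of ages. The libraries of 2 ages did not overlap for 1 of the 9 genes in 20 against 14 weeks (0 higher and 1 lower), beside 6.90% of all genes (2.97% higher and 3.93% lower). For 26 against 14 weeks that was again 1 (0 higher and 1 lower), beside 6.76% (2.90% higher and 3.86% lower), and for 26 against 20 weeks 1 (1 higher and 0 lower), beside 5.96% (3.69% higher and 2.27% lower).

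In numbers, 0 of the 9 genes other than Tagln2 were called by edgeR in 20 against 14 weeks, where 10.2% of all tested genes were (4.93% higher and 5.27% lower). At an unadjusted p under 0.05 there were 3 of them, and DESeq2 and limma-voom each called 1, Arpc2. The comparison of 26 against 14 weeks called 5, 3 higher and 2 lower, beside 11.0% of all genes (5.45% higher and 5.54% lower). In 26 against 20 weeks the count was again 5, with 3 higher and 2 lower, beside 16.0% of all genes (8.03% higher and 7.98% lower). The shares of all genes take in genes of low level. With a filter of 10 CPM in 6 libraries, 1166, 1219 and 1741 of 6176 genes were called in the same order of comparisons. The 3 comparisons share libraries by pairs, so the counts of the 9 genes are not separate evidence. The median change of the 9 genes was -0.17, -0.04 and 0.16 in 20 against 14, 26 against 14 and 26 against 20 weeks, against -0.02, 0.04 and 0.05 for all genes. Leaving out single libraries took the count for 26 against 14 weeks down to 3 without replicate 3, 4 or 6 of 14 weeks or replicate 6 of 26 weeks, and to 2 without replicate 5 of 14 weeks or replicate 1 or 5 of 26 weeks. For 26 against 20 weeks it went down to 3 without replicate 2 of 20 weeks or replicate 5 or 6 of 26 weeks, and to 2 without replicate 1 of 26 weeks. For 20 against 14 weeks it became 1 without replicate 1 of 20 weeks or replicate 4 of 26 weeks.

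**Figure D1:**
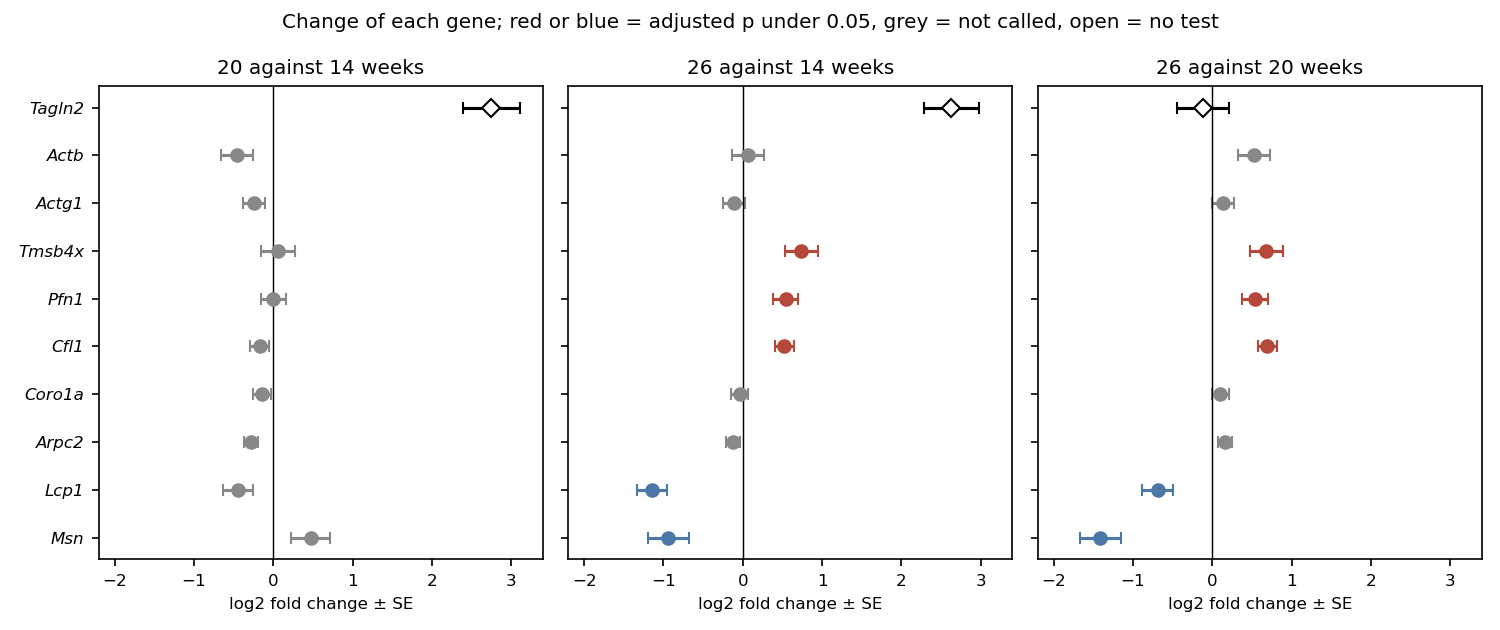
Log2 fold change (x axis, ± SE) of the 10 genes (rows) in 20 against 14, 26 against 14 and 26 against 20 weeks; red or blue marks genes called higher or lower by edgeR, grey genes not called, and open diamonds Tagln2, given without a test. Tagln2 stands at 2.75 in 20 against 14 weeks, while in both comparisons with 26 weeks Tmsb4x, Pfn1 and Cfl1 lie right of 0 (Tmsb4x and Pfn1 left of it once a transcript length trend is removed, as is the median of all genes) and Lcp1 and Msn left of it.

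The stretches of 250 bases before the transcription start were read from RefSeq's promoter table (GRCm38.p6, the C57BL/6J reference, not NZBWF1/J). It matched 9 of the 10 genes, all but Actb, with 11 promoters in all. The starts used there can differ from the GENCODE gene spans given below. The windows shown for Actg1, Tmsb4x, Lcp1 and Msn run partly into those spans, and that of Tagln2 lies mostly inside. They are shown for Actg1, whose promoter holds a known actin gene motif, for Tagln2, and for the 5 genes called in both comparisons with 26 weeks. The CArG box, the binding sequence of serum response factor, which is known for driving actin genes, was searched on both strands and was found in 1.47% of 32851 promoters of this length. Among the 11 promoters of the 9 genes it occurred in 1, that of Actg1 (chr11:120348496-120348745, minus strand), beginning 90 bases before the start and shown in capitals.
Actg1: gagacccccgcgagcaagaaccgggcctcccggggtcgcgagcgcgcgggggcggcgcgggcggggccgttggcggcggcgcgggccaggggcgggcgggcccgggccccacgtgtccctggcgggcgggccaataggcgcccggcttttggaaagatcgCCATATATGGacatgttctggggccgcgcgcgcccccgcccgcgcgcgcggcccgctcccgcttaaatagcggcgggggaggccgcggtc
The GC box GGGCGG, the usual recognition sequence of Sp1-type factors, was searched on both strands. It lay in 32.7% of all promoters and in 8 of the 11 promoters of these 9 genes, 1 in each gene but Cfl1. Lcp1 and Coro1a each have another promoter (chr14:75136175-75136424 and chr7:126704221-126704470), not shown, that lacks it. Capitals mark it, with overlapping matches joined, in Tagln2 (chr1:172499996-172500245, plus strand), in Tmsb4x (chrX:167209219-167209468, minus strand) and Pfn1 (chr11:70654651-70654900, minus strand), which were both called higher at 26 weeks, and in Lcp1 (chr14:75130873-75131122, plus strand) and Msn (chrX:96095795-96096044, plus strand), which were both called lower. Cfl1 (chr19:5490205-5490454, plus strand), also called higher at 26 weeks, is shown beside them without capitals.
Tagln2: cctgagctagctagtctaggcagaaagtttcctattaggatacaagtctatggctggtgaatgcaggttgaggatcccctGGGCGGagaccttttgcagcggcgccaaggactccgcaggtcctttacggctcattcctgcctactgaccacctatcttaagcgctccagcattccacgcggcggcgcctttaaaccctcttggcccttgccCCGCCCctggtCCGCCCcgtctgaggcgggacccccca
Tmsb4x: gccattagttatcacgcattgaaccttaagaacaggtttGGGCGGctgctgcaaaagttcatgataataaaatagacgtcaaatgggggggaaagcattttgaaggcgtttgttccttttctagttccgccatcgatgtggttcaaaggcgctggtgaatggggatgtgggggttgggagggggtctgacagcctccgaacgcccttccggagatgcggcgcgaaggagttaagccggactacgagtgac
Pfn1: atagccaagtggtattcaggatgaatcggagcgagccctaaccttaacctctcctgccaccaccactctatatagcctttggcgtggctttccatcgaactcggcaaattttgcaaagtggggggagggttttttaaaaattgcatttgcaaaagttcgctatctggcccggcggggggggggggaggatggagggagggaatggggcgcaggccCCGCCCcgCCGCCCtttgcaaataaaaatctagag
Cfl1: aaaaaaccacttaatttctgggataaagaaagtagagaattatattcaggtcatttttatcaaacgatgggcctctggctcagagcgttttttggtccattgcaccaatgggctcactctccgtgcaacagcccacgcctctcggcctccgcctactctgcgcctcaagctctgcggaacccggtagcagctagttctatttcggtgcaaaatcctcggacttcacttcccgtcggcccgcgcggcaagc
Lcp1: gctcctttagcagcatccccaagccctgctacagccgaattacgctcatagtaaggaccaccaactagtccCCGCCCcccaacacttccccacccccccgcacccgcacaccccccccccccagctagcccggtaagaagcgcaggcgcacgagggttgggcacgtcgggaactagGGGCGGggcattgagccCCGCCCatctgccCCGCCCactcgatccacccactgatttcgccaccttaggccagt
Msn: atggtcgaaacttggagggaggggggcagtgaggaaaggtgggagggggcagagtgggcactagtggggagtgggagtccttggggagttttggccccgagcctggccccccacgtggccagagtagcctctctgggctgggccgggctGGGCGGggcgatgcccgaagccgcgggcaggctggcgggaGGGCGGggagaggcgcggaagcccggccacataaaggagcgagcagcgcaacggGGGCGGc
The GC box stood in the window shown in 2 of the 3 genes called higher at 26 weeks, not in Cfl1, and in both genes called lower. The other window of Lcp1 had none, and all matches of Tagln2 lie inside its GENCODE gene span. A match is a string of letters in the reference and was not tested as a binding site.

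Tagln2 lies on the plus strand of chromosome 1 from 172500047 to 172507380 (GRCm38, GENCODE M21), and its main transcript has 5 exons. At 14 weeks it ran from 34.5 to 87.8 CPM with a median of 50.4, at 20 weeks from 175 to 632 with a median of 325, and at 26 weeks from 156 to 546 with a median of 313. Every library of the 2 older ages lay above every library of 14 weeks, and the 2 older ages overlapped. In 20 against 14 weeks the mean was 365 ± 184 CPM against 54.3 ± 21.2 CPM (SD, n = 6 each), a change of 2.75 ± 0.36 or 6.72-fold. The 14-week libraries of this comparison also entered the one the gene was taken as chosen on, so it has no test. Over the 18 fits that each left out 1 library the change was 2.52 to 2.94, and with the length trend removed it was 2.87 (2.22 in 26 against 14 and -0.65 in 26 against 20 weeks).

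In 26 against 14 weeks, the comparison it was taken as chosen on, Tagln2 averaged 336 ± 137 CPM against 54.3 ± 21.2 CPM, a change of 2.63 ± 0.35 (6.19-fold). In 26 against 20 weeks the change was -0.12 ± 0.33. Set against the main cytoplasmic actin of the same library, the 14-week libraries averaged 0.914 ± 0.487 Tagln2 counts per 100 of Actb, those of 20 weeks 7.55 ± 1.55 and those of 26 weeks 4.97 ± 2.13. Its ratio to Actb thus also lay higher at both older ages, from 2.76 to 9.4 per 100, than in any 14-week library, where it was 0.456 to 1.64. Among the smooth muscle relatives, Tagln itself, the founding transgelin of contractile smooth muscle, stayed at or below 13.4 CPM in all 18 libraries.

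Several marker lists of other cells also differed between 20 and 14 weeks. In 20 against 14 weeks the 8 monocyte and macrophage markers summed to 561 to 1176 CPM against 200 to 513 CPM, with none at 0 in all 20-week libraries and Cx3cr1, Ccr2, C1qa and C1qb at 0 in all those of 14 weeks. The 8 B and plasma cell markers summed to 524 to 2975 CPM against 188 to 343 CPM. The 3 eosinophil markers in the table summed to 32.5 to 76.9 CPM against 5.83 to 20.5 CPM. The 7 T and NK cell markers summed to 50 to 102 CPM against 117 to 148 CPM. Of these 7, Cd3e, Cd8a and Ncr1 were at 0 in all 20-week libraries, and Ncr1 and Klrb1c in all those of 14 weeks. The part of these lists in the Tagln2 difference of 20 against 14 weeks was not tested. In 26 against 14 weeks the monocyte and macrophage sum was 212 to 512 CPM against 200 to 513 CPM, with C1qa and C1qb at 0 in every library of both ages. The B and plasma cell sum was 261 to 866 CPM against 188 to 343 CPM, and their part in the Tagln2 level of 26 weeks was not tested. Platelet markers, 5 in the table, never summed above 8.77 CPM in a library, and the 4 smooth muscle and stromal markers in the table never above 37.9 CPM. Acta2, a smooth muscle actin that was not in that list, ran from 88.6 to 305 CPM.

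**Figure D2:**
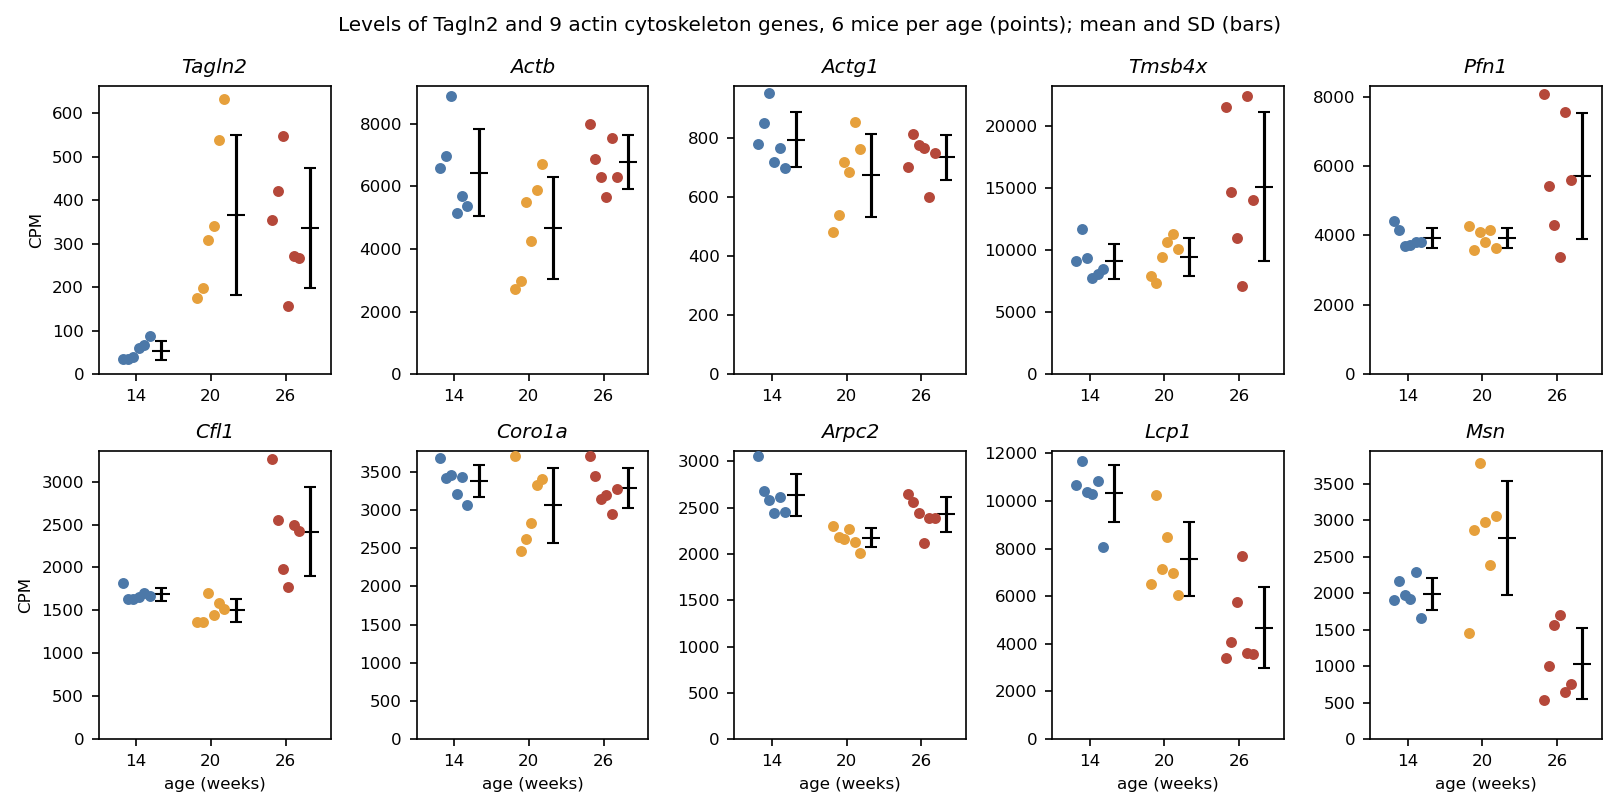
Levels (CPM, y axes from 0) of the 10 genes in each of 6 mice per age (points, in order of replicate number) with mean and SD (bars), at 14, 20 and 26 weeks. Every Tagln2 point of 20 and 26 weeks lies above the highest 14-week point, 87.8 CPM, and the 26-week points of Tmsb4x, Pfn1, Cfl1, Lcp1 and Msn are spread more widely than those of 14 weeks.

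Neither cytoplasmic actin was called between any pair of ages. Actb, which encodes beta-actin, lies on chromosome 5 (142903115 to 142906754, minus strand), and Actg1, which encodes gamma-actin, on chromosome 11 (120345690 to 120348542, minus strand). Actb ran from 5131 to 8889 CPM with a median of 6130 at 14 weeks, from 2714 to 6722 with a median of 4880 at 20 weeks, and from 5644 to 7974 with a median of 6577 at 26 weeks. The ranges of all 3 ages overlapped, and the lowest values were those of replicates 1 and 2 of 20 weeks, 2714 and 2967 CPM. The change was -0.46 ± 0.20 in 20 against 14 weeks (adjusted p = 0.166), 0.07 ± 0.20 in 26 against 14 weeks (0.889) and 0.53 ± 0.20 in 26 against 20 weeks (0.0754). Without replicate 6 of 20 weeks Actb was called in 26 against 20 weeks, with a change of 0.67 and adjusted p = 0.0307, and limma-voom (0.0195) and a filter of 10 CPM in 6 libraries (0.0403) also called it. With the length trend removed it stood at 0.08 (0.872).

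Actg1 averaged 795 ± 94.1 CPM at 14 weeks, 674 ± 140 CPM at 20 weeks and 735 ± 76 CPM at 26 weeks. Its changes of -0.24 ± 0.14, -0.11 ± 0.14 and 0.13 ± 0.14 in 20 against 14, 26 against 14 and 26 against 20 weeks were not called, with adjusted p of 0.319, 0.711 and 0.6. Of the counts of both actins, Actg1 took 11.1 ± 0.942% at 14 weeks, 13.1 ± 2.02% at 20 weeks and 9.95 ± 1.8% at 26 weeks. The largest difference, 9.95% at 26 weeks against 13.1% at 20 weeks, or -3.18 percentage points, had a two-sided exact permutation p of 0.0216 and 0.0649 after adjustment over the 3 pairs of ages. In 20 against 14 weeks the difference was 1.98 points (exact p = 0.0606, adjusted 0.0909) and in 26 against 14 weeks -1.2 points (exact p = 0.206, adjusted 0.206). Without replicate 6 of 20 weeks both differences from that age fell below 0.05, with an adjusted exact p of 0.0195 for 2.56 points against 14 weeks and for -3.76 points between 26 and 20 weeks. The coding sequences of the actins are nearly the same and both genes have processed pseudogenes, and the sources used here do not say how shared reads were counted, so the split between them is uncertain.

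The muscle actins differed among themselves. Acta2, the smooth muscle alpha-actin, had 174 ± 82.1 CPM at 14 weeks, 249 ± 37.5 CPM at 20 weeks and 172 ± 60.7 CPM at 26 weeks, and was not called between any ages. Acta1 of skeletal muscle had 4 counts in all 18 libraries together, and Actg2 of smooth muscle had 5. Of the relatives of the other genes, Tmsb10 (thymosin beta 10) averaged 2.72 ± 0.691 CPM at 14 weeks, 1.45 ± 0.937 CPM at 20 weeks and 4.42 ± 2.19 CPM at 26 weeks and was not called between any ages.

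Tmsb4x, Pfn1 and Cfl1 were called higher at 26 weeks than at either younger age. Tmsb4x encodes thymosin beta 4, the chief buffer of actin monomers, and lies on chromosome X (167207093 to 167209315, minus strand). It ran from 7751 to 11728 CPM with a median of 8829 at 14 weeks, from 7382 to 11300 with a median of 9791 at 20 weeks, and from 7092 to 22481 with a median of 14379 at 26 weeks. One 26-week library had the lowest value of all 18 and 4 of the 6 lay above every younger library, so the ages overlapped. The change was 0.74 ± 0.21 in 26 against 14 weeks (adjusted p = 0.0319), 0.68 ± 0.21 in 26 against 20 weeks (0.0361) and 0.06 ± 0.21 in 20 against 14 weeks (0.917).

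The Tmsb4x calls rested on most of the libraries. The call of 26 against 14 weeks was lost without replicate 1, 3, 4, 5 or 6 of 14 weeks or replicate 1 or 5 of 26 weeks (changes of 0.60 to 0.76, adjusted p up to 0.0869). That of 26 against 20 weeks was lost without replicate 1, 2, 3 or 6 of 20 weeks or replicate 1, 2, 5 or 6 of 26 weeks (0.53 to 0.71, adjusted p up to 0.102). When a smooth curve of level against transcript length was taken out of each library, which also moved the median of all genes to 0.23, -0.09 and -0.33 in 20 against 14, 26 against 14 and 26 against 20 weeks, Tmsb4x stood at -0.04 in 26 against 14 and -0.20 in 26 against 20 weeks (adjusted p = 0.957 and 0.539). Its main transcript, at 768 bases, is the shortest of the 10.

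Pfn1 encodes profilin 1, which loads monomers onto growing ends, and lies on chromosome 11 (70651850 to 70654644, minus strand). At 14 weeks it ran from 3699 to 4416 CPM with a median of 3817, at 20 weeks from 3584 to 4264 with a median of 3953, and at 26 weeks from 3379 to 8068 with a median of 5513. The younger ages were narrow and nearly level, and 26 weeks had both the lowest and the highest libraries. Pfn1 changed by 0.54 ± 0.16 in 26 against 14 weeks (adjusted p = 0.0373), by the same 0.54 ± 0.16 in 26 against 20 weeks (0.0266) and by 0.00 ± 0.16 in 20 against 14 weeks (0.993). The call of 26 against 14 weeks was lost without replicate 2, 3, 4, 5 or 6 of 14 weeks or replicate 1, 5 or 6 of 26 weeks (0.45 to 0.57, adjusted p up to 0.0962), and that of 26 against 20 weeks without replicate 2, 4 or 6 of 20 weeks or replicate 1 or 5 of 26 weeks (0.44 to 0.53, adjusted p up to 0.075). With the length curve Pfn1, whose transcript of 861 bases is the second shortest, stood at -0.19 in 26 against 14 and -0.28 in 26 against 20 weeks (adjusted p = 0.68 and 0.303), where the median of all genes was -0.09 and -0.33.

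Cfl1 encodes cofilin 1, the main filament-severing protein of leukocytes, and lies on chromosome 19 (5490455 to 5495201, plus strand). It ran from 1631 to 1823 CPM with a median of 1660 at 14 weeks, from 1363 to 1705 with a median of 1483 at 20 weeks, and from 1772 to 3264 with a median of 2463 at 26 weeks. Every 26-week library lay above every 20-week library, and only the 26-week value of 1772 CPM fell within the 14-week range. The mean of 2417 ± 518 CPM at 26 weeks stood against 1499 ± 133 CPM at 20 weeks, a change of 0.69 ± 0.12 (adjusted p = 0.00109), and against 1687 ± 72.1 CPM at 14 weeks, a change of 0.52 ± 0.12 (0.0111). Both calls held in all 18 fits that left out 1 library, with adjusted p up to 0.0283. With the length curve they were lost, at 0.43 in 26 against 14 and 0.35 in 26 against 20 weeks (adjusted p = 0.373 and 0.325). Tmsb4x, Pfn1 and Cfl1 have processed pseudogenes, which adds the same uncertainty about shared reads as for the actins.

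Arpc2 and Coro1a, of filament branching, were not called by edgeR. Arpc2, on chromosome 1 (74236084 to 74268209, plus strand), encodes a subunit at the core of the Arp2/3 complex. It ran from 2447 to 3061 CPM with a median of 2596 at 14 weeks and from 2007 to 2301 with a median of 2176 at 20 weeks, and averaged 2426 ± 184 CPM at 26 weeks. Every 20-week library lay below every 14-week library. The change of -0.28 ± 0.09 in 20 against 14 weeks had an adjusted p of 0.0607 and was not called by edgeR. It was called without replicate 1 of 20 weeks (-0.30, adjusted p = 0.0452) or replicate 4 of 26 weeks (-0.28, 0.0379), by DESeq2 (-0.25, 0.0114) and by limma-voom (-0.26, 0.0406), and stood at -0.17 (0.592) with the length trend removed. In 26 against 14 weeks it changed by -0.12 ± 0.09 (0.493) and in 26 against 20 weeks by 0.16 ± 0.09 (0.28). With the length trend removed these were -0.61 (0.0501) and -0.44 (0.0835), where the medians of all genes were -0.09 and -0.33. The second turned its direction, as did the median of all genes in that comparison, which was 0.05 before.

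Coro1a, on chromosome 7 (126699773 to 126707787, minus strand), encodes coronin 1A, which in leukocytes binds filaments and restrains the Arp2/3 complex. Its level was 3376 ± 210 CPM at 14 weeks, 3062 ± 492 CPM at 20 weeks and 3287 ± 265 CPM at 26 weeks, with overlap between all ages. The changes of -0.14 ± 0.11, -0.04 ± 0.11 and 0.10 ± 0.11 in 20 against 14, 26 against 14 and 26 against 20 weeks had adjusted p of 0.504, 0.894 and 0.598. Their 95% intervals, -0.36 to 0.08, -0.26 to 0.18 and -0.11 to 0.32, hold for this fit alone. Coro1a stood at -0.38 in 26 against 14 and -0.33 in 26 against 20 weeks with the length trend removed (adjusted p = 0.176 and 0.137), where the medians of all genes were -0.09 and -0.33.

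Lcp1 and Msn fell at 26 weeks against both younger ages. Lcp1, on chromosome 14 (75131101 to 75230842, plus strand), encodes L-plastin, the filament bundler of leukocytes. It ran from 8079 to 11674 CPM with a median of 10532 at 14 weeks, from 6071 to 10274 with a median of 7074 at 20 weeks, and from 3392 to 7692 with a median of 3841 at 26 weeks. Every 26-week library lay below every 14-week library, while 20 weeks overlapped with both. The means of Lcp1 in 26 against 14 weeks were 4686 ± 1713 CPM and 10323 ± 1205 CPM, a change of -1.14 ± 0.19 (0.454-fold, adjusted p = 0.0017).

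The fall of Lcp1 in 26 against 14 weeks held in all 18 fits without 1 library (-1.34 to -1.03, adjusted p up to 0.00773) and with the length curve (-1.07, adjusted p = 0.014). In 26 against 20 weeks Lcp1 changed by -0.69 ± 0.19 (adjusted p = 0.0164), a call lost without replicate 1 (-0.60, 0.0519) or replicate 6 (-0.62, 0.0505) of 26 weeks. The difference of 20 against 14 weeks, -0.45 ± 0.19, was not called (0.157), although all 6 libraries of 20 weeks lay below the 14-week median. Pls3, the plastin of solid tissues, was found with counts in 1 library of each age, at up to 4.76 CPM.

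Msn, on chromosome X (96096042 to 96168552, plus strand), encodes moesin, the main ezrin-radixin-moesin protein of leukocytes, which anchors filaments under the plasma membrane. Levels ran from 1664 to 2287 CPM with a median of 1947 at 14 weeks, from 1448 to 3789 with a median of 2918 at 20 weeks, and from 537 to 1703 with a median of 882 at 26 weeks. The 20-week libraries were high apart from replicate 1, at 1448 CPM, and 4 of the 6 libraries of 26 weeks lay below every younger library. In 26 against 20 weeks the means were 1036 ± 491 CPM and 2753 ± 783 CPM, a change of -1.41 ± 0.26 (0.376-fold, adjusted p = 0.00121). This call held in all 18 fits without 1 library (-1.61 to -1.26, adjusted p up to 0.00457). It was also kept with the length curve (-1.80, adjusted p = 6.80e-04), where the median of all genes was -0.33.

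Msn also changed in 26 against 14 weeks, by -0.94 ± 0.26 (adjusted p = 0.0231). That call was lost without replicate 5 of 14 weeks or replicate 1, 2, 5 or 6 of 26 weeks (-0.90 to -0.78, adjusted p up to 0.0665) and with the length curve (-0.88, 0.113). In 20 against 14 weeks it changed by 0.47 ± 0.25 and was not called (0.287). Of its relatives, Ezr (ezrin) had 393 ± 40.2, 472 ± 126 and 315 ± 129 CPM at 14, 20 and 26 weeks and was not called, and Rdx (radixin) had 49.9 ± 14.2 CPM at 26 weeks against 23.6 ± 12.6 CPM at 20 weeks, a change of 1.08 ± 0.30 (adjusted p = 0.0183, lost with the length curve at 0.303). The main transcripts of Lcp1 and Msn, 3841 and 3842 bases, are the longest of the 10.

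The spread among the 26-week mice ran in opposite directions for the genes that were higher and those that were lower. Replicates 1 and 5 of 26 weeks had the most Rn18s-rs5, 1410 and 3160 CPM, and replicates 3 and 4 the least, 180 and 134 CPM. Tmsb4x was highest in replicates 5 and 1, at 22481 and 21536 CPM, and lowest in replicates 3 and 4, at 10997 and 7092 CPM. Msn was lowest in replicates 1 and 5, at 537 and 647 CPM, and highest in replicates 4 and 3, at 1703 and 1567 CPM. Pfn1 (8068 and 7543 CPM in replicates 1 and 5, against 4293 and 3379 CPM in replicates 3 and 4) followed Tmsb4x, and Lcp1 (3392 and 3615 CPM against 5779 and 7692 CPM) followed Msn. Within the 26-week libraries, those with least Rn18s-rs5 were thus the nearest to the 14-week levels of these 4 genes, and the part of ribosomal RNA content in their differences between ages was not tested. Markers of other cells at 26 against 14 weeks summed to 261 to 866 CPM against 188 to 343 CPM for B and plasma cells (8 of 8 in the table, none at 0 throughout an age), 93.4 to 382 CPM against 117 to 148 CPM for T and NK cells (7 of 8, with Klrb1c at 0 in both ages) and 0.227 to 251 CPM against 0 to 2.42 CPM for erythroid cells (6 of 7). At 26 against 20 weeks the sums were 212 to 512 CPM against 561 to 1176 CPM for monocytes and macrophages (8 of 8, with C1qa and C1qb at 0 in all 26-week libraries), and 261 to 866 CPM against 524 to 2975 CPM for B and plasma cells. They were 93.4 to 382 CPM against 50 to 102 CPM for T and NK cells, 8.29 to 35.7 CPM against 32.5 to 76.9 CPM for eosinophils (3 of 4, with Prg2 at 0 in both ages), and 81336 to 176080 CPM against 29993 to 72162 CPM for neutrophils. The part of any of these lists in the differences of Tmsb4x, Pfn1, Cfl1, Lcp1 and Msn was not tested.

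**Figure D3:**
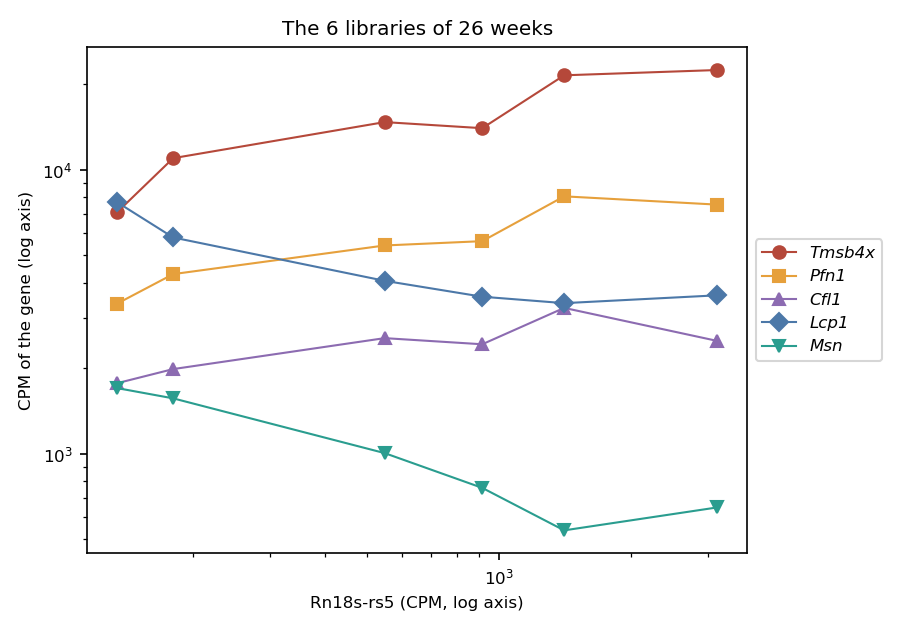
Level of 5 genes (CPM, log y axis) against the ribosomal RNA transcript Rn18s-rs5 (CPM, log x axis) in the 6 libraries of 26 weeks; each point is 1 mouse and lines join the values of 1 gene. Tmsb4x and Pfn1 are lowest in the library with 134 CPM of Rn18s-rs5, where Lcp1 and Msn are highest.

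The order of the genes was compared per length. On CPM per kilobase of the main transcript at 14 weeks, Tmsb4x led with 11845 ± 1867, followed by Pfn1 (4568 ± 333), Actb (3351 ± 727), Lcp1 (2688 ± 314), Coro1a (1932 ± 120), Arpc2 (1835 ± 157), Cfl1 (716 ± 30.6), Msn (517 ± 56.7), Actg1 (407 ± 48.2) and Tagln2 (34.2 ± 13.4). Neighbours from Pfn1 to Arpc2, and Msn with Actg1, overlapped between libraries. At 26 weeks Tmsb4x still led with 19719 ± 7772 CPM per kilobase, but now overlapped with Pfn1, and Tagln2 was last with 212 ± 86.1. Lcp1, with 1220 ± 446, came after Coro1a and after Arpc2, with which it overlapped. Msn, with 270 ± 128, came after Actg1 and overlapped with it and with Tagln2. Cfl1 has coding transcripts of 771 to 2354 bases and Tagln2 of 716 to 1586 bases, and on the shortest ones their levels would be 2188 and 75.8 CPM per kilobase at 14 weeks and 3135 and 469 CPM per kilobase at 26 weeks. Actg1 on its shortest, of 876 bases, would stand at 907 at 14 weeks, above the 517 of Msn. Lcp1 on its shortest, of 2523 bases, would stand at 4092, above the 3351 of Actb. The places of Cfl1, Actg1 and Lcp1, among others, therefore depend on the transcript taken. So does that of Tagln2 as last at 26 weeks, below the 270 of Msn.

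The genes whose log2 CPM was most like that of Tagln2 over the 18 libraries, among 4217 genes compared, were Pttg1 (securin, Pearson r = 0.933), Mpc1 (a subunit of the mitochondrial pyruvate carrier, 0.918), Cnbp (a nucleic acid-binding protein, 0.909), Eif5a (a translation factor, 0.905) and Pcbp1 (a poly(C)-binding protein, 0.894). The 4217 genes had a mean log2 CPM of at least 4. The 10 genes themselves, pseudogenes, immunoglobulin segments and symbols with Gm or Rik were left out of them. Pttg1 had 20.6 ± 7.52 CPM at 14 weeks, 85.1 ± 20.9 at 20 weeks and 76.6 ± 34 at 26 weeks, which has the form of the Tagln2 levels. For deviations from the age means the same pairs had r of 0.708, 0.707, 0.749, 0.65 and 0.756, so the likeness was partly that of the 3 ages. Between the 10 genes, r over the libraries was 0.926 for Pfn1 with Tmsb4x, 0.771 for Lcp1 with Msn and -0.864 for Pfn1 with Msn, and 0.879, 0.742 and -0.8 for deviations from the age means. All these values are descriptions over libraries that share their depth and composition between genes, and carry no test.

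Beyond the 10 genes, 10 lists named 134 other genes of the actin cytoskeleton, of which 108 were tested. In 20 against 14 weeks 4 of the 108 were called higher and 24 lower (25.9%, against 10.2% of all genes), with a median change of -0.31. The comparison of 26 against 14 weeks had 6 higher and 22 lower (25.9%, against 11.0%), with a median of -0.38, and in 26 against 20 weeks 14 were higher and 18 lower (29.6%, against 16.0%), with a median of 0.05. With the length curve these counts became 7 higher and 6 lower, 0 higher and 13 lower, and 2 higher and 35 lower. Over the 9939 genes that have a length the same step gave 777 higher and 245 lower, 106 and 338, and 324 and 1638, so the called genes of the whole table moved in the same directions with that step. The median of all genes was then 0.23, -0.09 and -0.33, so calls in those directions are kept more easily with it. The shares of all genes given above take in genes of low level. With a filter of 10 CPM in 6 libraries, 6176 genes were tested. Of these, 1166 were called in 20 against 14 weeks, 1219 in 26 against 14 weeks and 1741 in 26 against 20 weeks. The part of level in the larger shares of the 108 genes was not tested. The genes named below as called, other than Gmfg, kept the calls given in every fit without 1 library. Those fits are not given for Gmfg.

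Of 8 other Arp2/3 subunits, 2 were higher and 1 lower in 26 against 20 weeks, 2 and 2 in 26 against 14 weeks, and 0 and 2 in 20 against 14 weeks. Arpc3 had 705 ± 201 CPM at 26 weeks against 342 ± 45.6 CPM at 20 weeks (1.04 ± 0.17, adjusted p = 5.40e-04), and Arpc4 1007 ± 182 CPM against 653 ± 113 CPM (0.62 ± 0.13, 0.00335). Actr3, which encodes the actin-related protein Arp3, had 1164 ± 276 CPM at 20 weeks against 1893 ± 139 CPM at 14 weeks (-0.70 ± 0.15, 0.0045). All 3 calls were lost with the length curve (adjusted p = 0.311, 0.426 and 0.2).

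A list of 15 tested genes was drawn up as activators of the complex, though Gmfb and Gmfg in it are not activators. Of these 15, 1 was higher and 2 lower in 20 against 14 weeks. There were 2 higher and 4 lower in 26 against 14 weeks, and 1 and 5 in 26 against 20 weeks. Gmfg was 1 of the 2 higher in 26 against 14 weeks (0.75 ± 0.20, adjusted p = 0.0209), and Gmfb was not called in any comparison. Cyfip2 and Nckap1l encode parts of the WAVE complex. Cyfip2 had 258 ± 52.3 CPM at 20 weeks against 567 ± 61.2 CPM at 14 weeks (-1.14 ± 0.15, adjusted p = 2.26e-04, lost with the length curve at 0.212). Nckap1l had 232 ± 54.2 CPM at 26 weeks against 349 ± 68.9 CPM at 20 weeks (-0.59 ± 0.15, 0.012) and kept that call with the length curve (0.00578). Wipf1, a partner of the Wiskott-Aldrich protein, was lower in 26 against 20 weeks too, by -0.90 ± 0.21 (0.00537). Among 9 formins and Ena/VASP genes 0 were higher and 2 lower in each comparison with 14 weeks, and 1 and 1 in 26 against 20 weeks. Diap1, the symbol in the table for the formin mDia1, had 180 ± 52.9 CPM at 26 weeks against 357 ± 46.2 CPM at 14 weeks (-0.98 ± 0.18, 0.00247).

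Of 15 tested genes of monomer binding, severing and turnover 0 were higher and 3 lower in 20 against 14 weeks, 0 and 3 in 26 against 14 weeks, and 2 and 2 in 26 against 20 weeks. Dstn, which encodes destrin, a close relative of cofilin, had 358 ± 138 CPM at 20 weeks against 866 ± 164 CPM at 14 weeks (-1.27 ± 0.21, adjusted p = 0.00102). At 26 weeks it had 851 ± 150 CPM against the 358 ± 138 CPM of 20 weeks (1.25 ± 0.21, 7.56e-04), and both calls held with the length curve (0.00379 and 0.0132). Cap1, the cyclase-associated protein that recycles monomers from cofilin, had 2518 ± 605 CPM at 26 weeks against 4442 ± 400 CPM at 14 weeks (-0.82 ± 0.14, 0.00222), and kept its call with the length curve (0.0225).

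Among 10 capping and tropomyosin genes 0 were higher and 1 lower in 20 against 14 weeks, 0 and 2 in 26 against 14 weeks, and 1 and 2 in 26 against 20 weeks. Capg, a macrophage-rich capping protein, had 486 ± 255 CPM at 20 weeks against 1010 ± 137 CPM at 14 weeks (-1.06 ± 0.26, adjusted p = 0.0119). Tpm4, a tropomyosin of non-muscle cells, had 359 ± 69.8 CPM at 26 weeks against 666 ± 100 CPM at 14 weeks (-0.89 ± 0.15, 0.00182). Both calls held with the length curve (0.0187 and 0.00322).

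Of 10 crosslinking and bundling genes other than Lcp1, 2 were higher and 4 lower in 20 against 14 weeks, 0 and 2 in 26 against 14 weeks, and 1 and 1 in 26 against 20 weeks. Marcks, which crosslinks actin at the membrane, had 609 ± 197 CPM at 20 weeks against 194 ± 76.2 CPM at 14 weeks (1.65 ± 0.29, adjusted p = 0.00127). Flna, the filamin of non-muscle cells, had 921 ± 193 CPM at 20 weeks against 1727 ± 165 CPM at 14 weeks (-0.91 ± 0.16, 0.00159), a call lost with the length curve (0.39), its transcript having 8456 bases. Actn1, which encodes alpha-actinin 1, had 628 ± 204 CPM at 26 weeks against 1557 ± 158 CPM at 14 weeks (-1.31 ± 0.22, 0.00185), in the same direction as Lcp1, and the calls of Marcks and Actn1 held with the length curve (0.00148 and 0.014).

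Of 12 genes that link filaments to membrane and adhesions, 1 was higher and 7 lower in 20 against 14 weeks, 0 and 3 in 26 against 14 weeks, and 1 and 2 in 26 against 20 weeks. Vcl (vinculin) had 113 ± 25.8 CPM at 20 weeks against 282 ± 47.3 CPM at 14 weeks (-1.32 ± 0.19, adjusted p = 3.11e-04, and 0.059 with the length curve). Vcl was higher in 26 against 20 weeks, with 216 ± 54.6 CPM against 113 ± 25.8 CPM (0.94 ± 0.18, 0.00192, and 0.18 with the length curve). Pxn (paxillin) had 282 ± 119 CPM at 26 weeks against 642 ± 78.6 CPM at 20 weeks (-1.19 ± 0.21, 8.33e-04), and Zyx (zyxin) 1279 ± 284 CPM against 2290 ± 407 CPM (-0.84 ± 0.15, 0.0011). In that comparison Vcl thus went the other way from Pxn and Zyx, whose calls held with the length curve (1.84e-04 and 8.18e-04).

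Of 12 tested genes of myosin and contractility, 0 were higher and 3 lower in 20 against 14 weeks, 2 and 2 in 26 against 14 weeks, and 4 and 1 in 26 against 20 weeks. Myh9, the heavy chain of non-muscle myosin IIA, had 192 ± 93.7 CPM at 20 weeks against 423 ± 61.3 CPM at 14 weeks (-1.14 ± 0.30, adjusted p = 0.0178, lost with the length curve at 0.107). The light chain gene Myl6 had 407 ± 165 CPM at 26 weeks against 145 ± 37.2 CPM at 20 weeks (1.49 ± 0.23, 4.39e-04, and 0.00447 with the length curve). Myo1f, a leukocyte class I myosin, had 586 ± 202 CPM at 26 weeks against 1395 ± 146 CPM at 14 weeks (-1.25 ± 0.20, 0.00154, and 0.00322 with the length curve).

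Of 7 tested genes around serum response factor, whose motif stands in the Actg1 promoter above, 0 were called in 20 against 14 weeks (0 also at an unadjusted p under 0.05 and by DESeq2, 1 by limma-voom), 0 higher and 2 lower in 26 against 14 weeks, and 0 and 1 in 26 against 20 weeks. Of the 10 tested relatives of the 10 genes, 0 were called in either comparison with 14 weeks (3 and 1 at an unadjusted p under 0.05, 1 and 1 by DESeq2, 3 and 1 by limma-voom), and 1 higher and 2 lower in 26 against 20 weeks, the 2 being Coro1b and Coro1c.

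**Figure D4:**
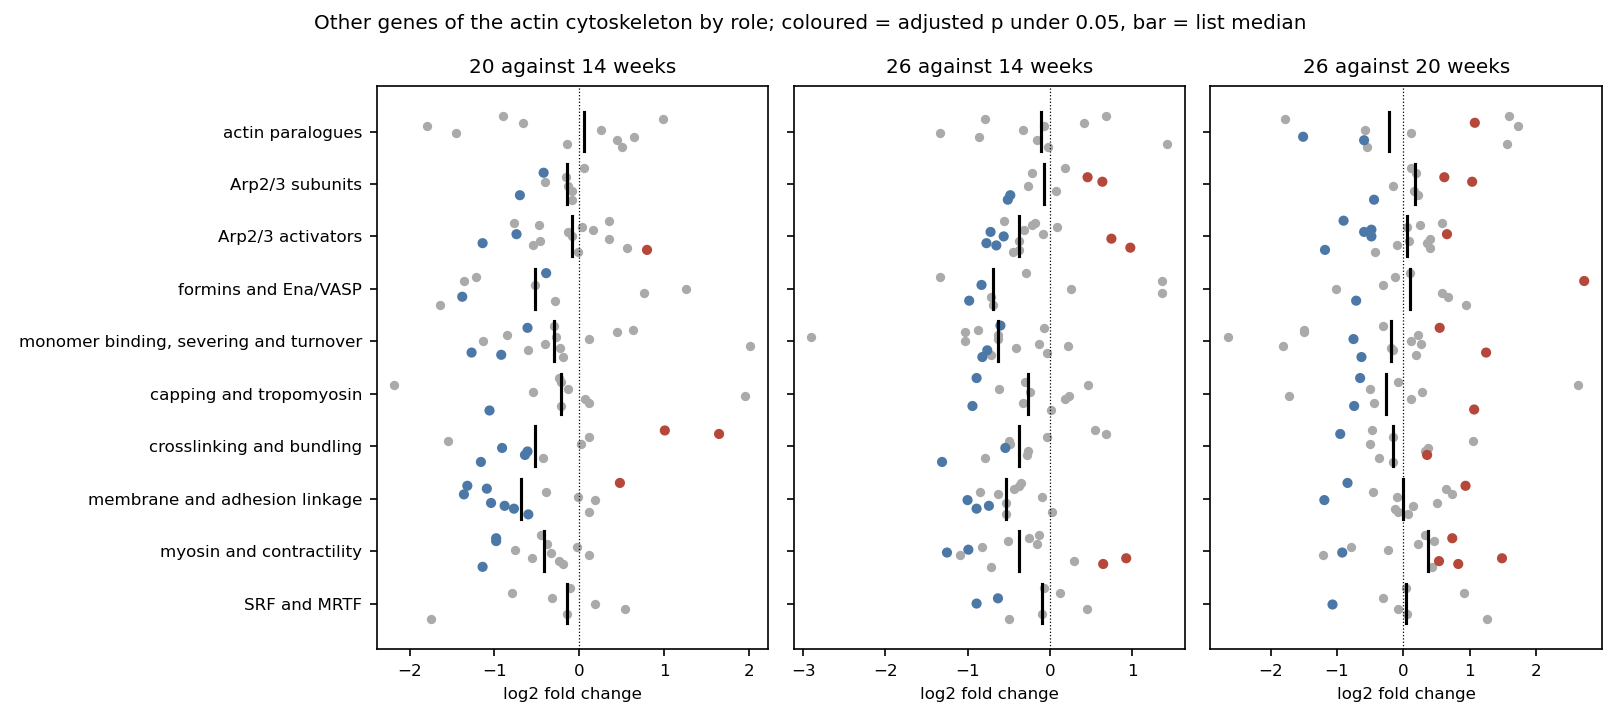
Log2 fold change (x axis) of 108 other actin cytoskeleton genes in 10 lists (rows) for 3 pairs of ages; each point is 1 gene, red called higher, blue called lower, grey not called, and the bar is the median of the list. Blue points outnumber red ones in both comparisons with 14 weeks, 24 to 4 and 22 to 6, and 6 to 7 and 13 to 0 once a transcript length trend is removed, when the calls of all genes were 245 lower to 777 higher and 338 to 106.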

How the data were processed

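Per the submitters' processing notes, the authors used the GRCm38.p4 build with DESeq, DESeq2 1.12.3, HTSeq 0.6.1, STAR 2.4.2a and Trimmomatic 0.32. The sources used here do not give the role of each tool, the annotation, the strand setting or the treatment of reads shared with pseudogenes. The deposited file holds unnormalized counts, 1 row per symbol and 1 column per mouse (18 columns). Per the labels' protocols, the Nextera XT kit took 1 ng of cDNA per library and reads were 100 nt single ends. The counts have no molecular identifiers.

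Age and replicate were taken from titles. edgeR 4.0.16 in R 4.3.3 (TMM, filterByExpr by age, robust quasi-likelihood fit of all 18 libraries, age only) gave the adjusted p of gene changes, Benjamini-Hochberg over 10104 genes, where no other fit is named. Other fits were adjusted over the genes that each tested, and the Actg1 share over the 3 pairs of ages. Of the fits, only the main edgeR fit was tested on simulated data. The Actg1 share was compared by an exact two-sided permutation test over 924 arrangements (smallest p 0.00216). Log2 CPM used a prior count of 2. Positions and transcript lengths are GENCODE M21's. Lists named up to 3 called genes each per comparison, by smallest p, of which part is printed. Some results are not reported here. The members and lists were chosen with earlier results of these data known. Alternatives were RLE and upper quartile scaling, DESeq2 1.42.0, limma-voom (limma 3.58.1), other filters, only the 2 ages compared, a replicate block, abundant genes left out, a loess curve (span 0.5) for transcript length, and each library left out. No library was a copy of another (chi-square per gene over pairs within an age, 28 to 211).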

Additional observations from a re-analysis of the deposited data

Results flagged for a closer look

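Replicate 6 of 14 weeks had 8079 CPM of Lcp1, and the other 5 libraries of that age had 10280 to 11674 CPM. On the log2 scale its gap to the nearest of them was 0.655 of the range of the group, above Dixon's 95% critical value for 6 samples. It was the only one among 33 groups of 6 values. Chance alone flags about 1 in 20 such groups, so 1 among 33 is no more than chance would give. Without a library at 14 weeks the fall of Lcp1 in 26 against 14 weeks kept its call, within the -1.34 to -1.03 given above.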

How the results depend on the processing

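The count of the 9 other genes called in 20 against 14 weeks, 0, became 1 with DESeq2 and 1 with limma-voom, and was 0 to 1 over the fits without 1 library. In 26 against 14 weeks 5 became 1 with the length curve, and 2 to 5 without 1 library. In 26 against 20 weeks 5 became 2 with the length curve and 2 with only the 2 ages compared, and 2 to 5 without 1 library. The length curve turned Pfn1 to -0.19 and -0.28 and Tmsb4x to -0.04 and -0.20, in 26 against 14 and 26 against 20 weeks, where the medians of all genes were -0.09 and -0.33, and the cause was not tested. With only the 2 ages compared, Lcp1, Pfn1 and Tmsb4x lost their calls of 26 against 20 weeks (adjusted p = 0.0517, 0.0863 and 0.0901).

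All genes called in 20 against 14 weeks, 1030, became 1698 with DESeq2 and 702 to 1263 without 1 library. In 26 against 14 weeks 1111 became 1789 with DESeq2, 2679 with limma-voom, 444 with the length curve, 1710 with only the 2 ages, and 652 to 1544 without 1 library (652, 733 and 726 without replicate 1, 2 and 6 of 26 weeks). In 26 against 20 weeks 1617 became 2553 with DESeq2, 2716 with limma-voom and 1141 to 1911 without 1 library. The share of calls that were higher, 48.3, 49.6 and 50.2% in 20 against 14, 26 against 14 and 26 against 20 weeks, became 76, 23.9 and 16.5% with the length curve, and 62% with upper quartile scaling and 59.6% with DESeq2 or the filter of 10 CPM in 26 against 14 weeks. The Actg1 share differences ranged from 1.53 to 2.56, -1.6 to -0.68 and -3.76 to -2.66 points without 1 library.

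Libraries of the same replicate number and different ages correlated in their deviations from the age means at -0.0527 to 0.136 (18 pairs). Those of different number and age correlated at -0.143 to 0.131 (90 pairs). No pairing by replicate number was seen, but such values cannot show that the mice were unpaired. With the replicate number as a block 0, 4 and 4 of the 9 genes and 962, 946 and 1573 of all genes were called, Tmsb4x losing both calls (0.68 and 0.61, adjusted p = 0.0743 and 0.0841). Each of the 10 genes had at least 341 counts in every library.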
